A study of Arabidopsis thaliana with 72 samples.

Results

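Roots of the Arabidopsis thaliana double mutant phr1phl2 were compared with roots of the wild type Col-0 (Col), both grown on medium with phosphate (+Pi). The comparison used 6 of the 72 libraries of the series, 3 for phr1phl2 and 3 for Col, and covered every gene of the deposited table. Of 33602 genes, 21206 reached 1 RPKM (reads scaled by gene length and library depth) in at least 3 libraries and were tested. The series holds 12 genotypes, Col and 11 mutants of the PHR1 family, each with phosphate and without it (-Pi). All plants were seedlings grown for 8 days on agar or agarose plates with sucrose, and the labels do not say which plate type a library came from. The single mutants phr1 and phl2 with phosphate, and Col and phr1phl2 without phosphate, with 3 libraries each, served for comparison. The labels name no alleles, no line of origin and no time of harvest, and whole roots pool many cell types.

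PHR1 and PHL2 are MYB-type transcription factors that bind a short palindromic DNA sequence, the P1BS element, in promoters of phosphate starvation genes. With phosphate supplied, SPX proteins bound to inositol pyrophosphates hold PHR1 away from DNA, and most of its targets are weakly expressed. Phosphate uptake in roots is tied to the supply of iron, nitrate and sulfate, which have transporters and regulators of their own.

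The targeted genes were checked first. PHR1 stood at 27.7, 19.9 and 25.1 RPKM in the Col libraries and at 1.62, 1.98 and 2.38 RPKM in the phr1phl2 libraries (replicates 1, 2 and 3, the order used throughout). PHL2 stood at 21.3, 14.5 and 17.2 RPKM in Col and at 1.03, 1.14 and 0.675 RPKM in phr1phl2. Both genes were low in every mutant library, with log2 fold changes of -3.07 ± 0.14 and -3.25 ± 0.16 (SE). PHR1 overlaps a gene on the opposite strand, and the labels do not state a stranded library. The relatives PHL1, PHL3 and PHL4 were not called, with log2 fold changes of -0.37, -0.72 and 0.62.

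Genes count as called below where the limma fit gave a Benjamini-Hochberg adjusted p below 0.05 together with a log2 fold change of 1 or more in size. In phr1phl2, 141 genes were called higher (0.665% of those tested) and 1121 lower (5.29%). A called gene was held where all 3 libraries of one genotype lay above all 3 of the other, which left 134 higher (0.632%) and 954 lower (4.5%). The groups did not overlap in 39.5% of all genes tested. Genes named as held or stable below were chosen by this rule, so their lack of overlap is not separate evidence. The libraries differed with gene length on both sides. The slope of a library's log2 deviation on gene length, per SD of log2 length, was -0.282, 0.00505 and 0.0177 in Col and 0.23, 0.145 and 0.154 in phr1phl2, so that these slopes did not overlap either. By k-means on the slopes on GC content, length and adenine content, Col replicate 1 fell in class 2, Col replicates 2 and 3 and phr1phl2 replicate 3 in class 1, and phr1phl2 replicates 1 and 2 in class 3. Estimated depth was 23.3, 14.4 and 21.8 M reads in Col and 22.6, 23.5 and 25.8 M reads in phr1phl2. Held lower genes were short, with a median exon length of 1056 bases against 1728 for all genes tested and 2185 for held higher genes.

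The fit was therefore repeated with the library class as a term and with values corrected for the 3 slopes. With the class term, 78 of the held higher genes (0.368%) and 163 of the held lower genes (0.769%) were still called, and with corrected values 81 (0.382%) and 277 (1.31%). Counted over all genes, corrected values gave 306 calls higher and 331 lower. In all 3 fits 67 genes were higher (0.316%) and 137 lower (0.646%), and these are called stable below. Of these, 51 higher and 115 lower genes also kept their call when each library of phr1phl2 or Col was left out in turn. The 791 held lower genes lost with the class term had a median length of 1035 bases. A mutant effect can enter the slopes, so the shares of genotype and library in the lost genes cannot be told apart.

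**Figure D1:**
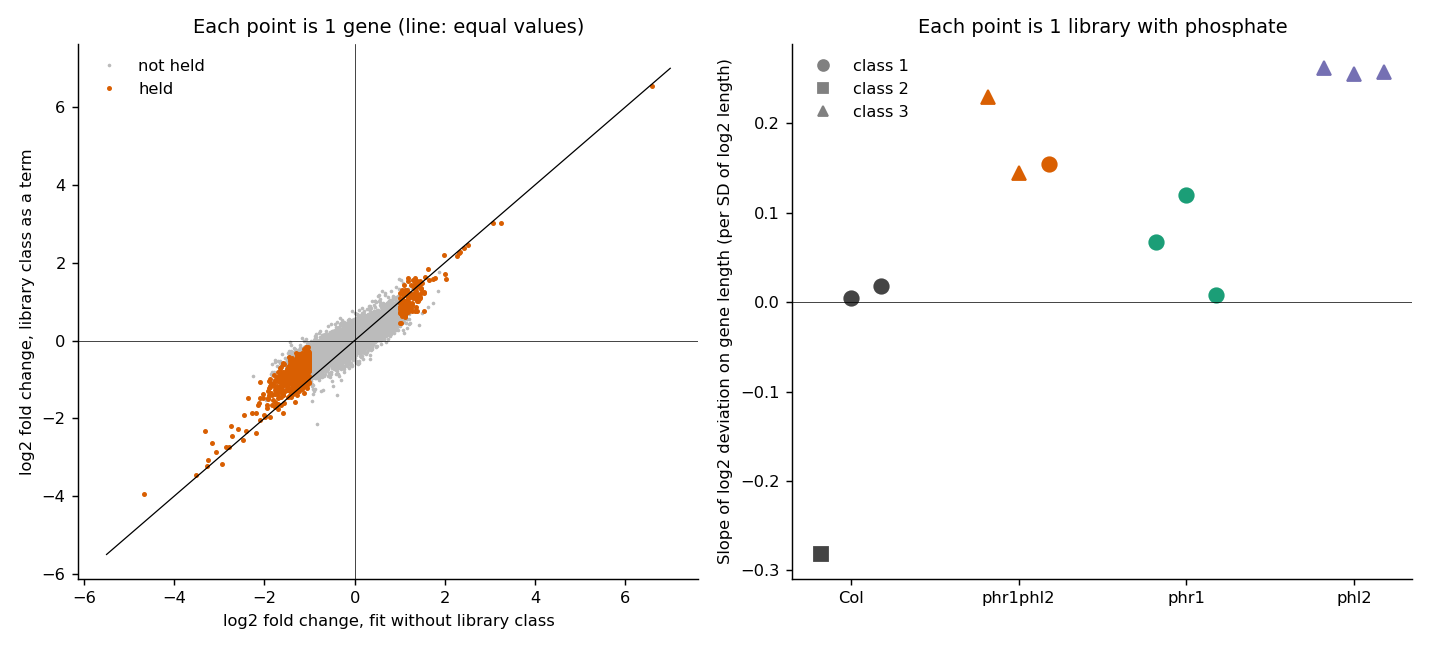
Left: the log2 fold change of phr1phl2 against Col with phosphate without (x axis) and with (y axis) the library class as a term, for each gene tested, with held genes in orange and a line of equal values. Right: the slope on gene length in each library with phosphate, by genotype, with symbols for the library class. Of the 954 held lower genes most lie above the line, closer to 0 with the class term, and the length slopes of Col lie below those of phr1phl2.

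Of 26 gene lists with 402 genes, 377 genes were tested. The lists were chosen with earlier results of these data known. Their shares, here and below, are therefore descriptions beside all genes and not a test of the lists. The flavonoid list had the highest share of held lower genes and the circadian clock list the highest share of held higher genes, followed by the sulfate list. The root hair, low oxygen, cytokinin response and root tip phosphate and aluminium lists held no gene in either direction. The median log2 fold change over all genes tested was -0.08, and -0.00 with the class term.

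**Figure D2:**
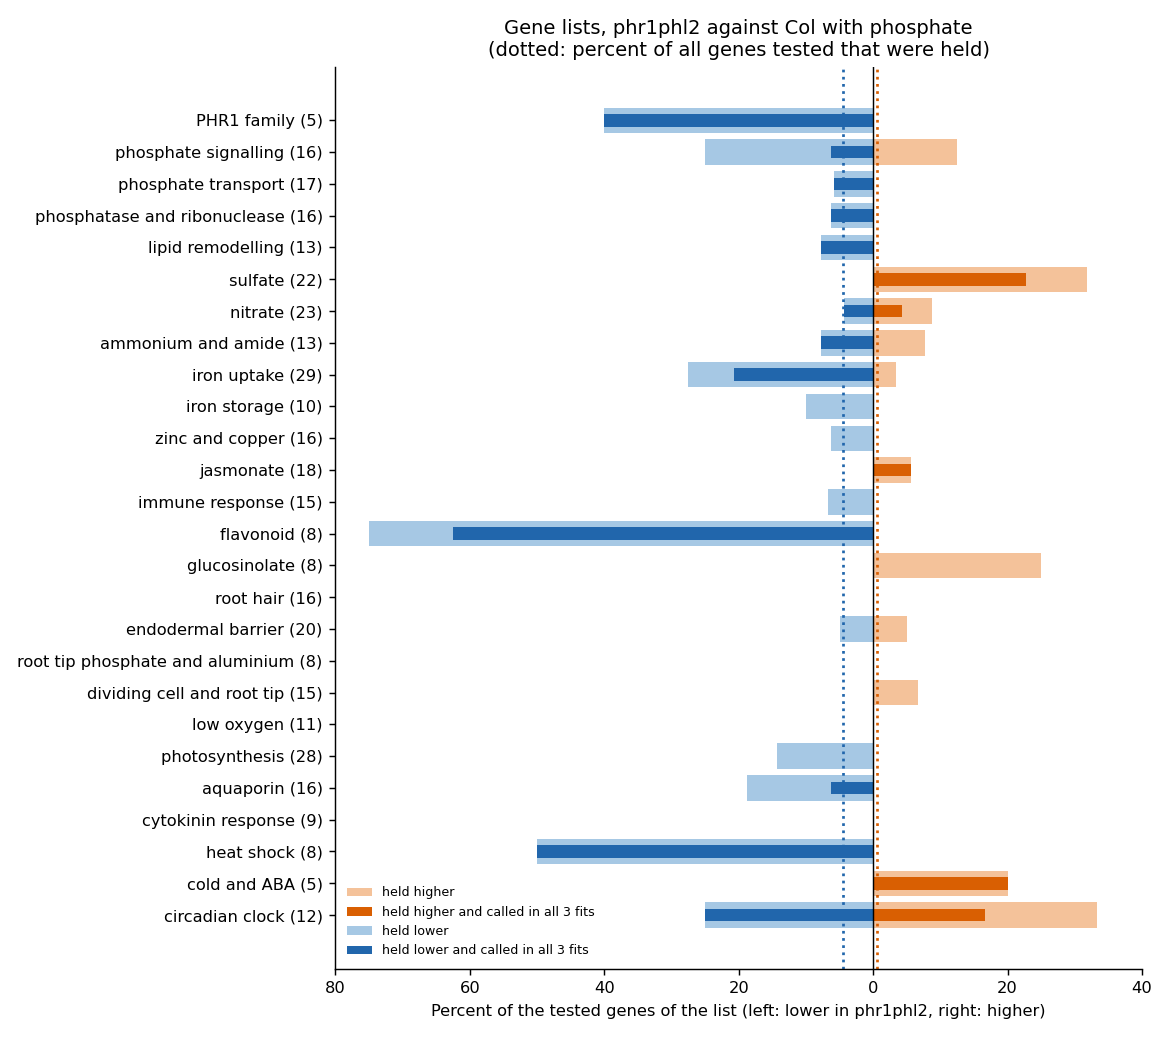
Percent of each list's tested genes (number in brackets) that were held lower (left, blue) or higher (right, orange) in phr1phl2 against Col with phosphate, with the genes called in all 3 fits as dark inner bars. Dotted lines mark 4.5% lower and 0.632% higher among all genes tested. Beside the PHR1 family, which holds the mutated genes, flavonoid and heat shock genes reach farthest to the left, followed by iron uptake, phosphate signalling and clock genes, and clock and sulfate genes farthest to the right.

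Most genes of the phosphate starvation lists were not held in this comparison with phosphate supplied. Of 16 tested phosphate signalling genes 4 were held lower (25% against 4.5% of all genes) and 2 higher (12.5% against 0.632%). Of 17 transport, 16 phosphatase and ribonuclease and 13 lipid remodelling genes 1 each was held lower (5.88%, 6.25% and 7.69%), shares near that of all genes, so these are results about the single genes and not about the lists. AT4, a non-coding RNA that sequesters miR399, stood at 244, 781 and 454 RPKM in Col and at 22.2, 23.5 and 153 RPKM in phr1phl2. Replicate 3 of the mutant was several times above the other two but below every Col library, and the log2 fold change was -3.32 ± 0.47 (SE, limma adjusted p = 4.62e-07). PAP17, a purple acid phosphatase, stood at 26.8, 19.5 and 23.9 RPKM in Col and 5.89, 8.87 and 7.27 RPKM in phr1phl2, with no overlap (log2 -1.55 ± 0.16). GDPD1, a glycerophosphodiester phosphodiesterase that acts on products of phospholipid breakdown, stood at 53.4, 31.8 and 45.4 RPKM in Col and 15.4, 18.15 and 17.1 RPKM in phr1phl2 (log2 -1.29 ± 0.12). G3Pp1, a putative glycerol-3-phosphate permease, had a log2 fold change of -1.01 and was stable as well, but fell short of the threshold without Col replicate 3 (-0.94) or phr1phl2 replicate 3 (-0.95). PAP17 and GDPD1 overlap genes on the opposite strand.

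SPX1, a phosphate sensor that restrains PHR1, stood at 17.57, 25.6 and 23.2 RPKM in Col and 5.65, 6.2 and 13.4 RPKM in phr1phl2, every mutant library below every Col library. Its log2 fold change was -1.37, and -0.79 with the class term, where the call was lost. SPX2, of the same family, was lost in the same way (-1.20 and -0.75). IPS1, a relative of AT4, had a log2 fold change of -1.76 and kept its call with the class term (-1.70) but not with corrected values (-0.89, adjusted p = 0.138, limma). PHO2, the ubiquitin-conjugating enzyme that removes phosphate transporters, and AT3G01310 were held higher (1.19 and 1.19) and lost their calls with the class term (0.72 and 0.81).

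The P1BS element, searched as GNATATNC, reads the same on both strands. In the window from 250 bases before to 50 after the annotated start it occurred in 6.13% of all 37897 promoters and in 6.36% of the 21006 promoters of tested genes. It occurred in 7.35% of the held lower genes with a promoter (70 of 953) and 8.21% of the held higher genes (11 of 134), and in 10.9% of the 137 stable lower genes (15 genes) and 7.46% of the 67 stable higher genes (5 genes). In the 250 bases before the start alone, a window added after the first shares were seen, the shares were 5.28% and 5.6%, then 6.61% and 8.21%, then 10.2% and 7.46%. The 250 bases before the start of AT4 (chr5:894332-894581, plus strand) and of GDPD1 (chr3:350011-350260, minus strand) are shown because both genes were stable and lower and hold the element, and those of SULTR1;2 (chr1:29327265-29327514, plus strand) because this sulfate transporter holds it and was higher. Sequences are from RefSeq TAIR10.1, 5′ to 3′, with the element in capitals. A match is a description of the letters and not a bound site.
AT4: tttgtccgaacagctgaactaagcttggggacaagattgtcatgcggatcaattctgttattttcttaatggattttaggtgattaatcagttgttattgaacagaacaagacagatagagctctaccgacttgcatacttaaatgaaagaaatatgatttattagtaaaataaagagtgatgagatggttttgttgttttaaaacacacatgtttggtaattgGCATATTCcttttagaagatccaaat
GDPD1: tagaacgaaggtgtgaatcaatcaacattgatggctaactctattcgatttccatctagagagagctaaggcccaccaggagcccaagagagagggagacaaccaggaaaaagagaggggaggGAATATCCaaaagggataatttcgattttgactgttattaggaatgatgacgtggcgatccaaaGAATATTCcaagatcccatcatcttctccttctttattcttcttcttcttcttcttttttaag
SULTR1;2: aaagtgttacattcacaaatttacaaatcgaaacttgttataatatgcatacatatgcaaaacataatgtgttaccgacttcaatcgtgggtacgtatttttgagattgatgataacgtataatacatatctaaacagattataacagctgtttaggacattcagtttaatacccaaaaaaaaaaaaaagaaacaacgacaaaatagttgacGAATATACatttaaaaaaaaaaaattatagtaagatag

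Genes for the uptake of ferrous iron at the root surface and some of their regulators were lower in phr1phl2. Of 29 tested iron uptake genes 8 were held lower (27.6% against 4.5% of all genes) and 1 higher, and 6 were stable, all lower. The summed level of the list was 1079, 1771 and 1485 RPKM in Col and 1899, 1689 and 1630.5 RPKM in phr1phl2, overlapping and not lower, and AHA2, which was held higher, made up the greater part of it in the mutant. IRT1, the main iron transporter of the root epidermis, stood at 211, 525 and 288 RPKM in Col and at 60.6, 71.8 and 75.8 RPKM in phr1phl2. Col varied by more than the mutant, and its lowest library still lay well above the highest of phr1phl2. The log2 fold change was -2.18 ± 0.21 (SE, limma adjusted p = 1.00e-11). FRO2, which reduces ferric iron at the root surface, stood at 48.1, 63.7 and 64.1 RPKM in Col and 15.3, 16 and 14.2 RPKM in phr1phl2, with log2 -1.87 ± 0.15 (SE, limma adjusted p = 5.43e-14). CYP82C4, an enzyme of iron-mobilising coumarin synthesis, stood at 34.1, 31.1 and 33.5 RPKM in Col and 9.71, 11.4 and 7.69 RPKM in phr1phl2, with log2 -1.69 ± 0.11. In each of these genes the groups did not overlap, as the rule for held genes requires.

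The transcription factors that partner FIT in activating iron uptake were lower too. BHLH38 stood at 8.87, 7.42 and 6.59 RPKM in Col and 0.907, 1.15 and 1.71 RPKM in phr1phl2 (log2 -1.94 ± 0.16), without overlap. BHLH39 and BHLH100 were stable, with log2 fold changes of -1.67 and -1.64. BHLH101 and MTP3, a vacuolar zinc transporter that rises with iron shortage, were held lower (-1.39 and -1.13) but fell short of the threshold with the class term (-0.90 and -0.92). FIT itself had a log2 fold change of -0.63 (adjusted p = 0.0315, limma) and was not called. AHA2, a plasma membrane proton pump, stood at 406, 635 and 607 RPKM in Col and 1381, 1177 and 1027 RPKM in phr1phl2, was held higher (1.14) and lost its call with the class term (0.76). BHLH38 and BHLH101 overlap genes on the opposite strand. Of 10 tested iron storage genes only VTL5 was held, lower, and its call was lost with the class term (-1.19 and -0.69).

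Sulfate uptake and assimilation genes were higher. Of 22 tested members 7 were held higher (31.8% against 0.632%) and 0 lower, all 7 kept their call with the class term, and 5 were stable. Without Col replicate 3, 1 of these, LSU2, fell short of the threshold (0.95). SDI1, a gene of the sulfur deficiency response, stood at 1.96, 2.01 and 1.09 RPKM in Col and 9.25, 9.6 and 9.82 RPKM in phr1phl2. The mutant libraries lay close together and far above Col, with log2 1.99 ± 0.21 (SE, limma adjusted p = 3.49e-10). APR3, which reduces activated sulfate, stood at 43.7, 119 and 74 RPKM in Col and 237, 235 and 265 RPKM in phr1phl2, again without overlap (log2 1.74 ± 0.18). SULTR1;2, the main sulfate importer of the root, stood at 78.7, 61 and 78.1 RPKM in Col and 172, 161 and 159.5 RPKM in phr1phl2 (log2 1.17 ± 0.10), and missed the threshold with corrected values (0.85). AT1G04770, SHM7, APR2 and LSU2 were the other held members, at log2 fold changes of 1.39, 1.41, 1.04 and 1.19. LSU1 was called (1.08) but overlapped, at 6.69, 1.32 and 0.964 RPKM in Col and 6.5, 6.56 and 4.87 RPKM in phr1phl2. LSU3, a low-sulfur response gene outside the list, was among the 12 genes with the highest increase (2.52 ± 0.20). APR3 overlaps a gene on the opposite strand. The median of the list was 0.76, and 0.72 with the class term.

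Of 23 tested nitrate genes 2 were held higher (8.7% against 0.632% of all genes) and 1 lower (4.35% against 4.5%). NRT2.1, a high-affinity nitrate transporter, stood at 0.577, 0.072 and 0.452 RPKM in Col and at 11.6, 10.2 and 9.41 RPKM in phr1phl2. It was near the detection floor in Col and clearly present in every mutant library, with log2 3.08 ± 0.12 (SE, limma adjusted p = 6.05e-27) on the log2(RPKM + 1) scale, which understates the change of a gene this low. Its neighbour NRT2.2 was listed at 0 in all 6 libraries. NRT1.1, the dual-affinity nitrate transporter and sensor, stood at 161, 168 and 178 RPKM in Col and 394, 357 and 384 RPKM in phr1phl2 (log2 1.16 ± 0.11), and at 0.88 with corrected values it missed the threshold. BT1, a BTB and TAZ domain protein that represses nitrate uptake genes, stood at 43.5, 26.4 and 28.2 RPKM in Col and 9.79, 10.8 and 9.45 RPKM in phr1phl2, with log2 -1.58 ± 0.15 and no overlap. Of 13 ammonium and amide genes, ASN1, an asparagine synthetase, was stable and lower (-1.06 ± 0.10), and GLT1 was held higher (1.11) but lost its call with the class term (0.60).

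**Figure D3:**
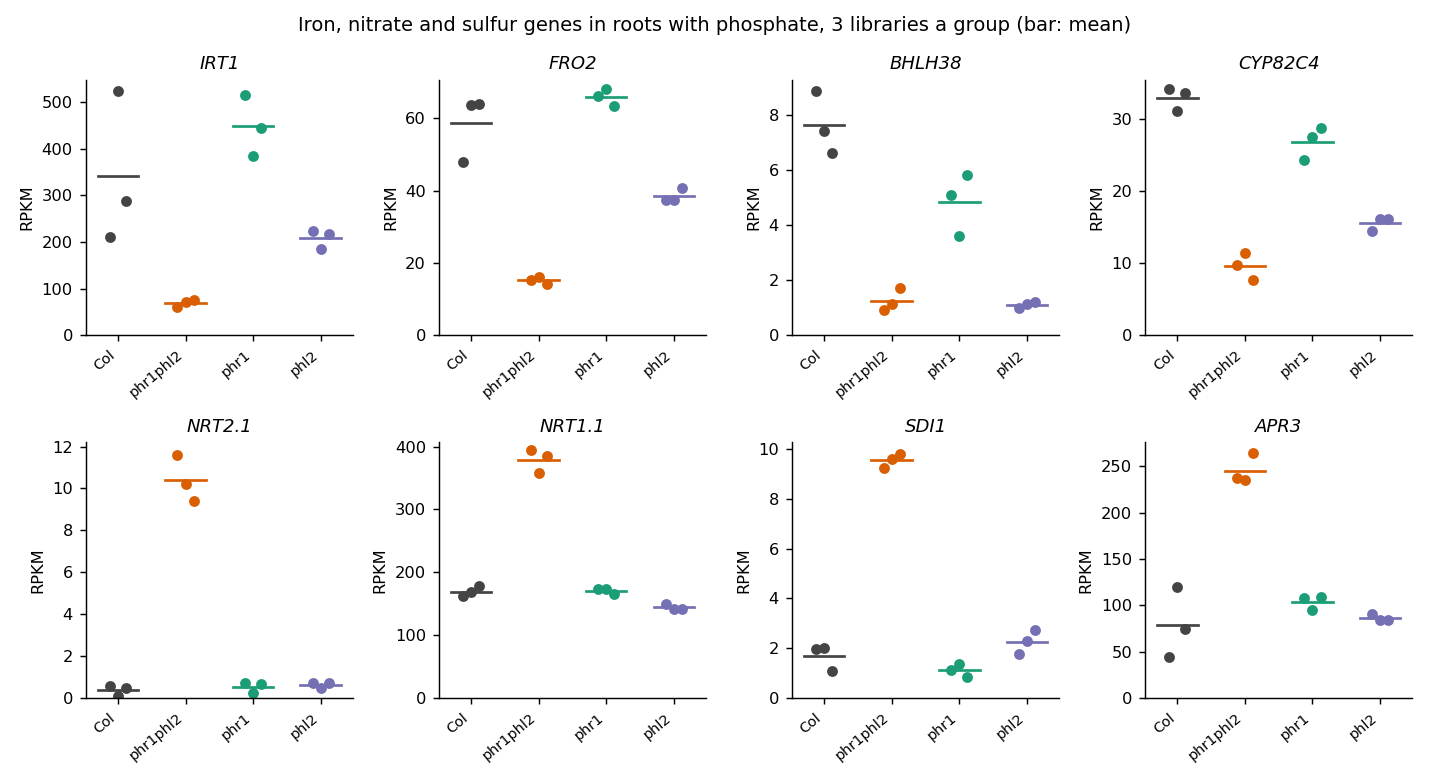
RPKM (y axis) of 4 iron, 2 nitrate and 2 sulfur genes in the 3 libraries each of Col, phr1phl2, phr1 and phl2 with phosphate. Points are libraries and bars are means. The phr1phl2 libraries lie apart from Col in every panel, and for NRT2.1, NRT1.1, SDI1 and APR3 above all other libraries shown.

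Flavonol synthesis genes were lower. Of 8 tested flavonoid genes 6 were held lower (75% against 4.5%), and 5 were stable. CHI, chalcone isomerase, stood at 159.9, 54.1 and 71.6 RPKM in Col and 15.6, 22.3 and 16.6 RPKM in phr1phl2. Col replicate 1 was the highest library, and the other two still lay above the mutant (log2 -2.19 ± 0.26 (SE, limma adjusted p = 6.26e-09)). F3H, FLS1, F3'H and CHS, further enzymes of the pathway, had log2 fold changes of -1.71, -1.60, -1.42 and -1.04. Without Col replicate 1 the value for CHS was -0.97, short of the threshold. MYB12, their transcriptional activator, was held lower (-1.07) but not called with the class term (-0.83). Against the same Col libraries, 7 of the 8 were called lower in phr1 and 8 in phl2. Over all genes, calls in phr1 were 0.75% higher and 1.7% lower, and in phl2 1.22% higher and 10.1% lower.

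**Figure D4:**
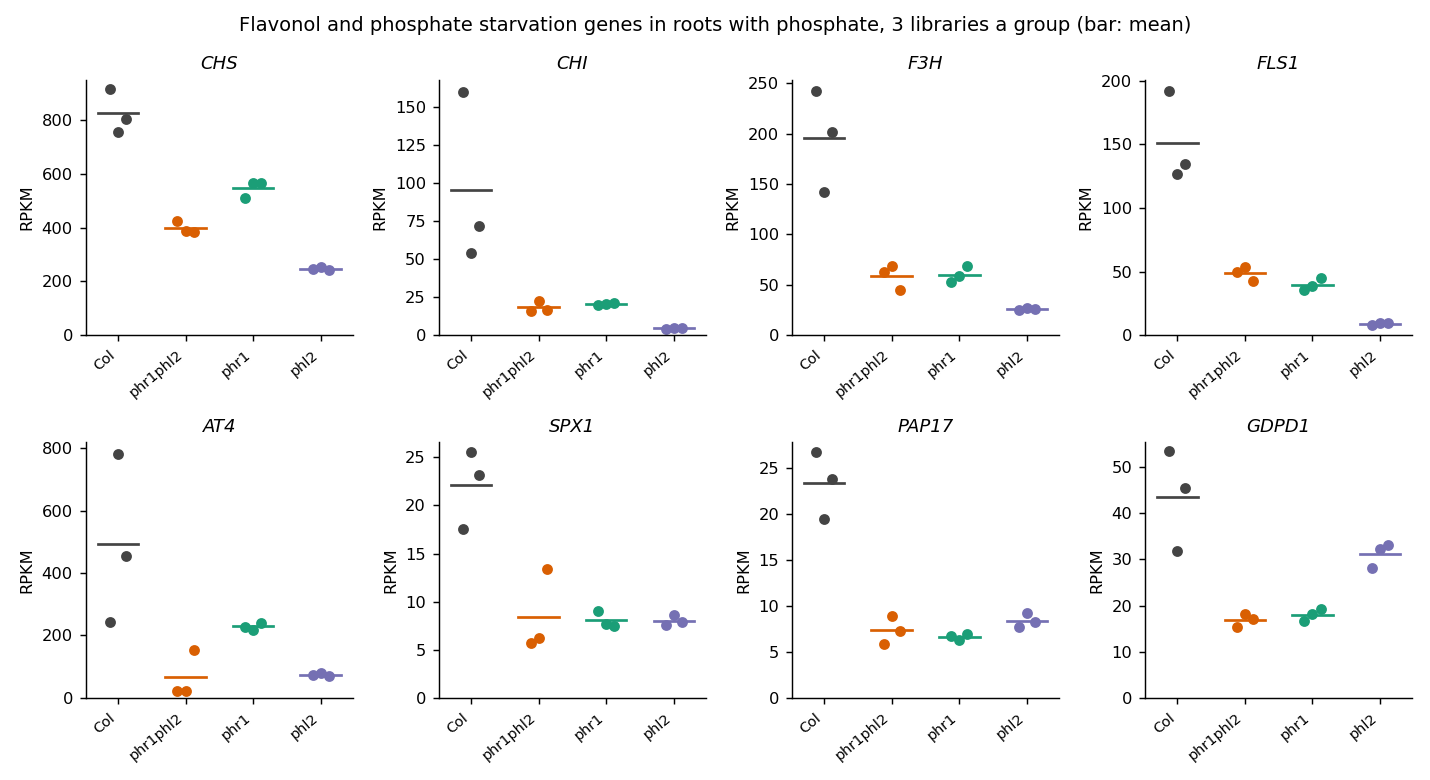
RPKM (y axis) of 4 flavonol synthesis genes (top) and 4 phosphate starvation genes (bottom) in the 3 libraries each of Col, phr1phl2, phr1 and phl2 with phosphate. Points are libraries and bars are means. All 8 genes are lower in every phr1phl2 library than in any Col library, and the flavonol genes are lowest in phl2.

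Of 8 tested heat shock genes, which encode chaperones that rise with heat, 4 were held lower (50% against 4.5% of all genes), all stable. HSP17.4 stood at 20.9, 11.5 and 9.3 RPKM in Col and 1.5, 2.31 and 1.26 RPKM in phr1phl2, with log2 -2.41 ± 0.31. All 3 mutant libraries lay below all 3 of Col. HSP17.6A stood at 8.81, 2.71 and 2.51 RPKM in Col and 0.483, 0.199 and 0.121 RPKM in phr1phl2. HSP17.6II and the larger chaperone HSP90.1 had log2 fold changes of -1.83 and -1.40. The summed level of the list was 109, 83.2 and 63.4 RPKM in Col and 33.8, 33.2 and 33 RPKM in phr1phl2. Called lower against the same Col libraries were 3 of the 8 in phr1 and 4 in phl2 (1.7% and 10.1% of all genes). In phr1phl2, 1 of the 8 was called lower than in phr1 and 0 than in phl2 (4.43% and 0.637% of all genes).

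Of 12 tested circadian clock genes 3 were held lower (25% against 4.5% of all genes) and 4 higher (33.3% against 0.632%). All 3 held lower were stable, but only 2 of the 4 held higher. Of these 4, 3 kept their call with the class term and 3 with corrected values. LHY and CCA1, MYB-type factors that peak around dawn, stood at 47.1, 80.8 and 85 RPKM and 34.7, 58 and 61.2 RPKM in Col. In phr1phl2 they stood at 7.82, 7.9 and 8.65 RPKM and 7.99, 7.73 and 8.83 RPKM, far below every Col library. Their log2 fold changes were -2.93 ± 0.18 and -2.47 ± 0.14. RVE8, another morning factor, was lower by the same rule (-1.65 ± 0.23). PRR5, a repressor of the morning genes, stood at 1.05, 1.03 and 1.1 RPKM in Col and 11.3, 10.3 and 8.65 RPKM in phr1phl2 (log2 2.42 ± 0.10). GI, which acts in the afternoon, stood at 9.28, 19.7 and 18.19 RPKM in Col and 70.8, 60.4 and 61.9 RPKM in phr1phl2 (log2 2.03 ± 0.27). PRR7 was held higher (1.16). The morning gene PRR9 was held higher too (1.15), but lost its call with the class term (0.79) and fell to 0.52 without Col replicate 1. Not all of PRR5, GI and PRR7 kept their call with corrected values. The evening genes TOC1, LUX and ELF4 were not called, TOC1 at 0.80, LUX at 0.71 and ELF4 at 0.21. The part of clock phase at harvest in the iron, sulfate, nitrate and other differences was not tested.

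**Figure D5:**
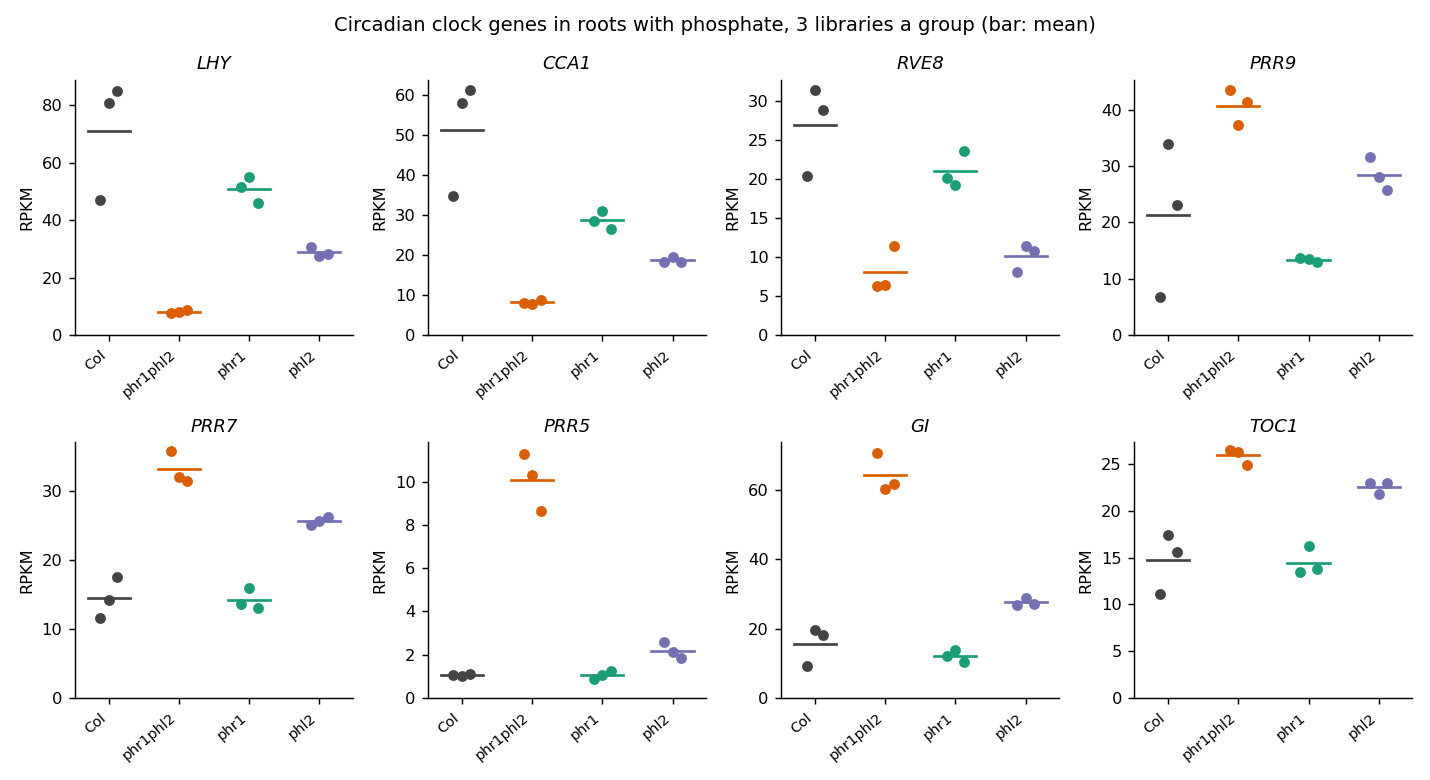
RPKM (y axis) of 8 circadian clock genes in the 3 libraries each of Col, phr1phl2, phr1 and phl2 with phosphate. Points are libraries and bars are means. LHY, CCA1 and RVE8 are lower, and PRR9, PRR7, PRR5 and GI higher, in every phr1phl2 library than in any Col library.

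Markers of green tissue and of root cell types showed few stable changes. Of 28 photosynthesis genes 4 were held lower (14.3% against 4.5% of all genes). With the class term 0 kept their call, and with corrected values 2 did. The summed level of the list was 1184, 576 and 693 RPKM in Col and 543, 572 and 455 RPKM in phr1phl2. No gene was at 0 in every library of a group, and the part of this list in the other results was not tested. Of 16 aquaporin genes 3 were held lower (18.75% against 4.5% of all genes). PIP2;3, a water channel with a close copy in PIP2;2 that may share reads, was stable (-1.75 ± 0.18). In bulk roots, fewer cells of a type and less RNA per cell cannot be told apart. CASP5, of the endodermal barrier, was held lower (-1.30), and ABCG2, a transporter of the suberin barrier, and PLT1, a root tip regulator, were held higher (1.11 and 1.06), all 3 lost with the class term. In the glucosinolate list CYP79B2 and CYP79B3, which make the indole precursor, were held higher (1.05 and 1.01) and lost in the same way. VSP2, a jasmonate-responsive storage protein, and RD29A, a cold and abscisic acid response gene, were stable and higher (1.37 ± 0.12 and 1.54 ± 0.19). WRKY70 and CSD2 were held lower (-1.03 and -1.12) and not called with the class term.

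Among all genes the highest increase was in AT3G01345, an uncharacterised protein. It stood at 0.444, 0.636 and 0.364 RPKM in Col, 150.1, 145 and 132 RPKM in phr1phl2, 62, 70.7 and 72.3 RPKM in phr1 and 0.372, 0.454 and 0.438 RPKM in phl2. It was thus high in both genotypes that carry phr1 and low in both that do not (log2 6.60 ± 0.11 (SE, limma adjusted p = 6.88e-45)). BAT1, an acyltransferase that acts on brassinosteroids, went the other way, at 119, 91.8 and 113 RPKM in Col, 11.3, 11.8 and 7.78 RPKM in phr1phl2, 4.74, 3.86 and 4.77 RPKM in phr1 and 101, 105 and 112 RPKM in phl2 (log2 -3.28 ± 0.12). CHX16, a cation/proton exchanger, rose from 1.89, 1.68 and 2.6 RPKM to 29, 25.6 and 28.3 RPKM (log2 3.24 ± 0.14), and ABF1, a transcription factor of abscisic acid responses, by a log2 of 2.34. TINY2, AT5G49850, AT4G14548 and CIPK4 rose by 2.01, 2.27, 2.31 and 1.78.

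The deepest decrease was in QQS, a small protein that affects starch content. It stood at 24.9, 116 and 69.8 RPKM in Col and 0.52, 0.285 and 5.78 RPKM in phr1phl2, variable in Col but without overlap (log2 -4.66 ± 0.41). MRD1 and HEI10, neighbours that overlap on opposite strands, had log2 fold changes of -3.52 and -2.86, and their reads cannot be told apart without strand. SEN1, a senescence and dark response gene, stood at 29.1, 15.2 and 25.1 RPKM in Col and 1.12, 2.28 and 1.57 RPKM in phr1phl2 (log2 -3.16 ± 0.38). HKT1, which retrieves sodium from the xylem, stood at 23.9, 28.1 and 25 RPKM in Col and 3.1, 2.24 and 3.38 RPKM in phr1phl2 (log2 -2.78 ± 0.12). AT4G39675 and AT1G07400, the latter a small heat shock type chaperone, had log2 fold changes of -2.74 and -2.72. All of these were stable.

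The double mutant was then set against its single mutants. Against phr1, 108 genes were higher (0.509%) and 939 lower (4.43%), and against phl2, 226 were higher (1.07%) and 135 lower (0.637%). Of the 22 sulfate genes 10 were higher than in phr1 and 10 than in phl2, all called with the class term too. Over all genes the class term gave 0.736% higher and 1.6% lower against phr1, and 0.887% higher and 0.74% lower against phl2. SDI1 stood at 1.14, 1.38 and 0.825 RPKM in phr1 and 1.76, 2.29 and 2.72 RPKM in phl2, and phr1phl2 was above both by log2 2.33 and 1.71. NRT2.1 stood at 0.705, 0.239 and 0.676 RPKM in phr1 and 0.699, 0.468 and 0.687 RPKM in phl2, and phr1phl2 was above both by log2 2.90 and 2.82. NRT1.1 was above both by 1.14 and 1.39.

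Of the 29 iron uptake genes 7 were lower than in phr1, 5 of them with the class term, and 2 were lower and 1 higher than in phl2, all 3 with the class term. IRT1 stood at 515, 385 and 444 RPKM in phr1 and 223, 186 and 217 RPKM in phl2, and phr1phl2 was below both by log2 -2.67 and -1.57. FRO2 was below both by -2.05 and -1.29. BHLH38 was below phr1 (-1.36), while its difference from phl2 was 0.08 (adjusted p = 0.869, limma). Of the 8 flavonoid genes 0 were called against phr1, and 5 were higher than in phl2, among them FLS1 (2.28) and F3'H (2.17). LHY was below phr1 by -2.50 and below phl2 by -1.71, and PRR5 above them by 2.43 and 1.797. PAP17 and SPX1 were called against neither, with differences from phr1 of 0.11 and -0.03 and from phl2 of -0.18 and -0.03. All phl2 libraries were of class 3 and all phr1 libraries of class 1.

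The difference between phr1phl2 and Col was last compared between media. Without phosphate, 2218 genes were higher in phr1phl2 than in Col (10.5%) and 831 lower (3.92%). The difference of the 2 effects, without phosphate minus with it, was called higher in 4883 genes (23%) and lower in 1512 (7.13%), and with the class term in 1901 (8.96%) and 669 (3.15%). All 8 tested flavonoid genes were called higher in phr1phl2 without phosphate, and the difference between media was called in all 8, with the class term too. FLS1 had a log2 fold change of -1.60 with phosphate and 3.21 without. Of the 29 iron uptake genes 9 were called with a higher effect without phosphate and 5 with a lower one, of which 7 and 2 with the class term. IRT1 had log2 fold changes of -2.18 with phosphate and -0.09 without. Of the 22 sulfate genes 13 were called with a lower effect without phosphate, 10 of them with the class term. Lipid remodelling genes, of which 1 was held lower with phosphate, were called lower without it in 8 of 13 members. The 3 Col libraries without phosphate were of class 1, and the phr1phl2 libraries without phosphate of classes 1, 2 and 2.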

How the data were processed

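Gene values are the RPKM table the authors deposited, with 33602 genes and 72 columns matched to the labels by name, and 0 columns not used. The submitters' processing notes name TAIR10, TopHat and edgeR and give neither versions nor roles. Per the labels' protocols RNA came from roots of 8-day-old seedlings by a column kit, with oligo(dT) selection. Strand and read length are not given in the sources used here. The series calls the replicates biological, but no label ties them to separate plates, so p-values measure the spread between these libraries, which may be technical.

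Log2(RPKM + 1) was fitted with limma 3.58.1 (R 4.3.3) over all 72 libraries with 24 group means, with trend and robust settings, for genes with at least 1 RPKM in 3 libraries. Adjusted p-values are Benjamini-Hochberg over 21206 genes, and all fold changes are on this scale (n = 3 libraries a group). Depth was estimated from steps between low values in genes of 1 exon (10.9 to 39.9 M reads, median 22.6), and in the median library 70.5% of those values came within 0.05 of a whole number of reads. Classes are from k-means (scikit-learn 1.9.0, 50 starts, 3 classes) on slopes over 9128 genes, with silhouettes of 0.496, 0.572 and 0.482 for 2, 3 and 4 classes. Names, lengths and promoters came from RefSeq TAIR10.1, to which 32835 IDs matched.

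Members and lists were chosen with earlier results of these data known. Named genes are the PHR1 family, the 12 held genes with the largest change in either direction, the 4 largest held members of each list and the 3 largest in either direction of each other comparison. Other list members were named after their values were seen. The fit was also run on simulated data with the group means and residual spread of these libraries. The simulated noise was independent between genes, so that run does not cover the library differences with gene length. The alternatives tried were no filter (29088 genes), a pseudocount of 0.1, median ratio scaling, the compared groups alone, a replicate block, library class as a term, class 1 libraries alone, each library left out, and, added after seeing the data, corrected values.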

Additional observations from a re-analysis of the deposited data

Results flagged for a closer look

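The difference between phr1phl2 and Col depended on the medium in 44 of the named held genes, by the test of that difference itself in the fit of all libraries (limma, adjusted p under 0.05 and an absolute log2 difference of at least 1) and with the class term. Over all genes the difference was called higher in 4883 (23%) and lower in 1512 (7.13%), so such calls were common. Values are the log2 effect without phosphate minus that with phosphate. The comparison with phosphate enters both, so these values are not independent of the choice of genes. The named genes also include those chosen for the largest difference between media in either direction. For genes chosen in that way the test repeats the choice and adds no separate evidence. The count of 44 is therefore not independent of the values tested.

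In 14 genes that were higher in phr1phl2 with phosphate, the effect was lower without it. They were LSU3 (-4.27), NRT2.1 (-3.36), SDI1 (-3.28), GI (-2.74), VSP2 (-2.53), CIPK4 (-2.50), APR3 (-2.36), SHM7 (-2.35), ABCG2 (-2.19), CHX16 (-1.90), TINY2 (-1.88), PRR5 (-1.79), ABF1 (-1.66) and CYP79B2 (-1.50). NRT2.1, for example, had a log2 fold change of 3.08 with phosphate and -0.28 without. SDI1 went from 1.99 to -1.29. Without phosphate LSU3 (-1.75), SDI1, VSP2 (-1.16) and ABCG2 (-1.08) were called lower in phr1phl2 than in Col. CHX16 was still called higher there (1.34), and the rest of these 14 genes were not called.

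In 14 genes that were lower with phosphate, the effect without it was closer to 0 or not called in the other direction. They were LHY (1.09), PAP17 (1.37), HSP90.1 (1.503), FRO2 (1.60), CYP82C4 (1.69), PIP2;3 (1.74), HKT1 (1.86), BHLH38 (1.95), PIP2;2 (1.97), HSP17.6A (2.09), IRT1 (2.09), HSP17.4 (2.22), AT4 (2.57) and AT1G07400 (3.22). IRT1 went from -2.18 with phosphate to -0.09 without. CYP82C4 had a log2 fold change of 0 without phosphate, so its value here only mirrors that with phosphate. Levels without phosphate are not given here. A gene near the floor in both genotypes there can therefore not be told from one expressed equally.

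In 16 genes that were lower with phosphate, phr1phl2 was called higher than Col without it. They were RBCS1B (2.33), CSD2 (2.39), PSBP1 (3.04), PSBO2 (3.18), RBCS2B (3.40), VTL5 (3.43), F3H (3.62), F3'H (3.76), SEN1 (4.35), AT4G39675 (4.36), FLS1 (4.81), WRKY70 (4.82), BT1 (4.88), CHI (5.62), PDF2.1 (6.64) and PSK4 (6.78). CHI went from -2.19 with phosphate to 3.43 without, and PSK4 from -2.44 to 4.34. The library classes also differ between the media.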

How the results depend on the processing

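Of the 69 named held genes 0 changed direction under any alternative. They were chosen for groups that do not overlap. Leaving out a library, or changing the filter, pseudocount or replicate block, could therefore not reverse them, and for these settings the count is no sign of stability. Calls were kept by 51 with the class term, 53 with corrected values, 41 in the compared groups alone, 55 without Col replicate 1, 67 with median ratio scaling, 68 with a pseudocount of 0.1 and 69 with no filter.

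The count of 1262 called genes moved to 2006 with a pseudocount of 0.1, 200 in the compared groups alone, 292 with the class term, 466 in class 1 libraries alone, and, with alternatives added after seeing the data, 637 with corrected values and 517 with these and without Col replicate 1. The count of 1088 held genes moved to 1707, 200, 271, 466, 590 and 415 in the same order. Leaving out 1 library gave 669 (without phr1phl2 replicate 1) to 2069 (without Col replicate 2) called and 656 to 2017 held genes, with 702 held without Col replicate 1. Against phr1, the 1047 calls moved to 571 in the compared groups alone, 495 with the class term and 283 in class 1 libraries, and to 591 without phr1phl2 replicate 1 and 1576 without replicate 3. Against phl2, the 361 calls moved to 616 with a pseudocount of 0.1, and leaving out 1 library gave 334 to 432. The class 1 values of every comparison rest on 1 phr1phl2 library with phosphate (replicate 3), and that of the media also on 1 without it (replicate 1), beside 2 libraries of Col and 3 of phr1 with phosphate. The spread there comes from the other groups, a lone library is assumed to vary like them, and these values are no sign of stability. Class 1 libraries alone could not be fitted against phl2, since no phl2 library with phosphate is of class 1. The 6395 calls of the difference between media moved to 2570 with the class term and 4205 in class 1 libraries, and to 4959 and 7276 at the extremes of leaving out 1 library. With median ratio scaling the split of higher and lower calls in that difference was 3985 and 2378 against 4883 and 1512. With corrected values 306 genes were higher and 331 lower in phr1phl2 against Col, against 141 and 1121. The cause of these moves was not tested.

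Same-numbered libraries of phr1phl2 and Col correlated at 0.25, -0.49 and 0.09 in their deviations from the group means, so the numbers do not pair them. With a replicate block 139 genes were higher and 1106 lower, and all 69 named held calls were kept. With 3 libraries a group, small changes of genes near 1 RPKM could not be resolved.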
